A study of Homo sapiens with 18 samples.

Results

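The comparison described here is between A10, 1 of 3 human embryonic kidney (HEK) lines labelled ATXN1L-KO, and the lines of the same study labelled wild type. Its members are the 3 arrays of A10 and the 9 arrays of the wild-type lines, taken by their titles, so 12 of the 18 arrays in the series. RNA from each of the 6 lines was measured on Affymetrix arrays in biological triplicate, with cells grown in DMEM with 10% FBS, RNA taken with a Qiagen miRNeasy kit and a Biotin Allonamide Triphosphate label. The wild-type lines were the parental HEK cells and N4 and N8, which are isogenic CRISPR controls, and A10 is labelled an isogenic CRISPR ATXN1L-KO line. The treatment field carries the same words for every sample, parental cells included: CRISPR, puromycin selection and growth of single colonies. A10 is thus 1 clone. The p-values measure the spread between cultures of a line, pooled over the 6 lines, and say nothing of clones edited independently. The sources used here do not give which part of ATXN1L was edited.

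ATXN1L is a relative of ataxin-1 that binds the transcriptional repressor Capicua (CIC) and keeps its protein level up. CIC sits on short octamer motifs near its target genes, among them the ETS factors ETV1, ETV4 and ETV5 and feedback inhibitors of the RAS and MAPK pathway such as the Sprouty and DUSP genes. MAPK signalling removes CIC from these genes, and loss of CIC or of its partners is known to raise their transcripts.

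Values are the deposited log2 expression values, 1 probe set for each gene, and a difference of 1 is a doubling. Differences are the A10 mean minus the mean of the 3 wild-type line means, with limma's standard error, and a gene was called at a Benjamini-Hochberg adjusted p under 0.05 over 9686 genes. That error pools the spread within all 6 lines, and can understate that of A10 where replicate 1 stands apart. Between arrays of a line, the median standard deviation of a gene was 0.12. HEK markers fitted the label in part: of 10 with a symbol, 7 (EYA1, SIX2, LHX1, KRT8, KRT18, VIM and SOX2) lay above the filter value of 5.6 on all 12 arrays, and IRS4 lay at or below it on all 12. The summed level of these HEK markers was 66.36 to 67.36 on the A10 arrays and 67.26 to 70.33 on the wild-type arrays, and its part in the results was not tested. Markers of other cell types with a symbol were only in part at or below 5.6 on all 12 arrays. For fibroblasts this held for 1 of 3 (DCN) and for leukocytes for 4 of 5 (LYZ, CD14, TYROBP and LCP1). It held for 4 of 4 of keratinocytes, among them KRT5 and KRT14, and for 5 of 7 of hepatocytes, among them ALB and APOB. For endothelium it held for 4 of 6, among them PECAM1, KDR and VWF. CD68 of the leukocyte list and CLDN5 of the endothelial list lay above 5.6 on all 12. LUM and THY1 of fibroblasts, APOA1 and TTR of hepatocytes and ERG of endothelium lay above it on some of the 12.

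Replicate 1 of A10 stood apart from replicates 2 and 3, so the main results are given with and without it. With all arrays, 814 genes (8.40% of those tested) were called against the mean of the wild-type lines, 372 higher in A10 (3.84%) and 442 lower (4.56%). Without replicate 1 the count was 1142 (11.8%), 481 higher (4.97%) and 661 lower (6.82%), and 654 genes were called with the same sign both ways, which is 80.3% of the first list and 57.3% of the second. For the 1142 genes called from replicates 2 and 3 alone, replicate 1 lay outside the range of the 9 wild-type arrays on the same side in 360 genes (31.5%) and on the same side of the wild-type mean in 827 (72.4%). The other replicates placed differently: leaving out replicate 2 gave 327 calls, of which it lay outside on the same side in 251 (76.8%), and leaving out replicate 3 gave 329 calls, with 258 (78.4%) outside. These shares come from unlike sets of genes, since the 327 and 329 were called with replicate 1 included and the 1142 without it. Over all genes tested, replicate 1 was above every wild-type array in 11.9% and below every one in 12.3%. The median gene called from replicates 2 and 3 reached in replicate 1 31.9% of its difference. Replicate 1 arrays of the 6 lines deviated together, with correlations of 0.165 to 0.514 between their deviations from the line means. Set against the 3 wild-type arrays numbered 1 alone, A10 replicate 1 was on the same side of their mean in 889 of the 1142 genes (77.9%), and the median gene reached 38.3% of its difference.

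**Figure D1:**
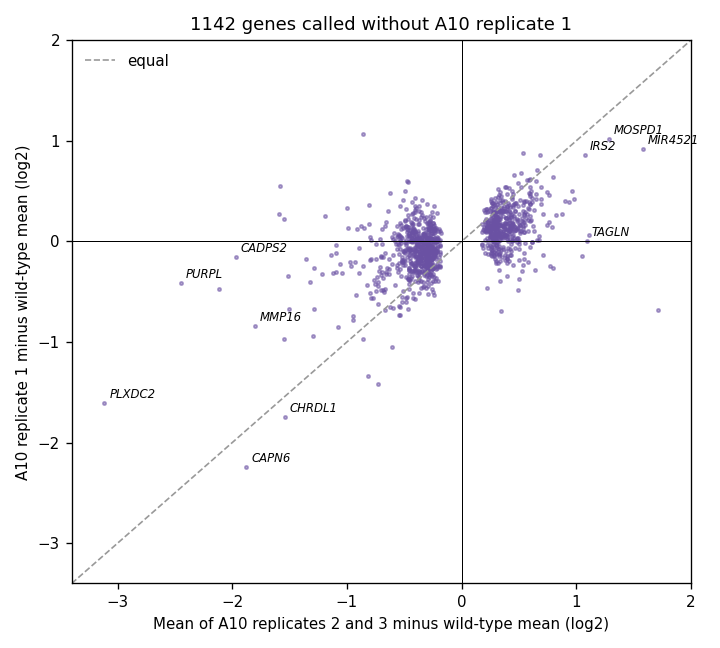
Each point is 1 of the 1142 genes called without A10 replicate 1. The x axis is the mean of A10 replicates 2 and 3 minus the wild-type mean, the y axis is A10 replicate 1 minus the wild-type mean, both on the log2 scale, and the dashed line marks equal values. Most points lie nearer to y = 0 than to the dashed line, while MOSPD1, IRS2, CHRDL1 and CAPN6 lie near the line.

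The wild-type lines did not give the same count. A10 differed from the parental cells in 635 genes (6.56%), from N4 in 650 (6.71%) and from N8 in 1255 (13.0%). Without A10 replicate 1 these counts were 1162, 1104 and 1212. Called with 1 sign against every wild-type line alone were 140 genes (1.45%), 76 higher (0.785%) and 64 lower (0.661%), and 318 without A10 replicate 1. That count was 58 without A10 replicate 2, 58 without A10 replicate 3 and 85 without parental replicate 2. Without A10 replicates 2 and 3 in turn, the calls numbered 255 and 285 against the parental cells and 274 and 250 against N4. Leaving out the parental arrays in turn gave 378, 343 and 358 against the parental cells, and leaving out N4 replicates 2 and 3 gave 346 and 367 against N4. The 3 A10 arrays lay all above or all below the 9 wild-type arrays in 479 genes (4.95%), 238 above (2.46%) and 241 below (2.49%).

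The largest rises among the genes called against every wild-type line were in the microRNA gene MIR4521, in MOSPD1, a membrane protein of the endoplasmic reticulum, and in IRS2, the adaptor that passes insulin and IGF receptor signals to PI3 kinase. MIR4521 is shown by sequence because it rose most. RefSeq places the mature form at chr17:8186948-8186969 on the plus strand of GRCh38.p14, and the capitals mark the seed, bases 2 to 8:
hsa-miR-4521: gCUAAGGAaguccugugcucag
Whether the probe set reads the mature form or its hairpin is not given in the labels. MIR4521 read 8.32, 8.91 and 9.06 on A10 replicates 1, 2 and 3, and 6.81 to 8.10 with a median of 7.23 on the wild-type arrays. Every A10 array was above every wild-type array, with the highest wild-type value on a parental array close to A10 replicate 1. The difference was 1.36 ± 0.23, or 2.56-fold (adjusted p = 0.00141), and 1.58 without replicate 1. With line means as replicates, where the spread is that between wild-type lines, MIR4521 was the only gene that passed upward (adjusted p = 0.036), and 4 genes (0.0413%) passed in all.

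MOSPD1, on chromosome X, read 10.46, 10.70 and 10.75 in A10 and 8.97 to 9.96 (median 9.52) on the wild-type arrays. The groups did not overlap. Its rise was 1.20 ± 0.12, or 2.29-fold (adjusted p = 1.25e-05), from 0.90 against N8 to 1.45 against N4. IRS2, on chromosome 13, read 8.47, 8.65 and 8.71 in A10 and 7.40 to 7.79 (median 7.57) on the wild-type arrays. All 3 A10 arrays were well above the range of the wild-type arrays, replicate 1 included. The difference in IRS2 was 1.00 ± 0.06, or 2.00-fold (adjusted p = 5.58e-08), and 0.85 to 1.12 against single wild-type lines.

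EFNB2, a membrane-bound ligand of Eph receptors, read 8.32, 8.45 and 8.49 in A10 against 7.13 to 7.98 (median 7.75), and rose by 0.74 ± 0.09 (1.68-fold, adjusted p = 6.22e-05). EDIL3, a secreted integrin-binding matrix protein, read 8.34, 8.64 and 8.64 against 7.61 to 8.16 (median 7.87), and rose by 0.67 ± 0.09 (1.59-fold, adjusted p = 1.61e-04). Neither gene's A10 arrays overlapped the wild-type arrays. TPM1, the actin filament protein tropomyosin 1, read 7.04 on A10 replicate 1 and 7.65 and 7.63 on the others, against 6.57 to 7.12 (median 6.64). Here replicate 1 fell within the wild-type range, near the N8 arrays, and the rise of 0.67 ± 0.10 (1.60-fold, adjusted p = 3.93e-04) was 0.87 without it. CRKL, an SH2 and SH3 adaptor downstream of tyrosine kinases, read 9.58, 9.84 and 9.86 against 8.91 to 9.36 (median 9.18), and its rise was 0.60 ± 0.06 (1.52-fold, adjusted p = 1.59e-05).

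XBP1, the transcription factor activated by the IRE1 arm of the unfolded protein response, read 8.43, 9.01 and 8.98 in A10 and 7.90 to 8.34 (median 8.18) on the wild-type arrays. It rose by 0.63 ± 0.11 (1.55-fold, adjusted p = 0.00142), with A10 replicate 1 just above the highest wild-type array. PRAME, a testis and tumour antigen that serves as a receptor of a cullin ubiquitin ligase, read 6.81, 7.23 and 7.48 against 6.13 to 6.74 (median 6.42) and rose by 0.75 ± 0.10 (1.69-fold, adjusted p = 2.24e-04). The long noncoding RNA LINC00649 rose by 0.74 ± 0.12, the zinc finger gene ZNF280B by 0.66 ± 0.08 and SLC9D1 by 0.64 ± 0.07, each with no overlap between the A10 and wild-type arrays. Of these 12 rises, IRS2, EFNB2 and SLC9D1 lie on chromosome 13, and PRAME, ZNF280B, XBP1 and CRKL on chromosome 22.

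The largest fall was in PLXDC2. This gene encodes a transmembrane protein with a plexin repeat domain, and read 6.11, 4.54 and 4.66 in A10 and 7.55 to 7.93 (median 7.63) on the wild-type arrays. No A10 array reached the wild-type range, but replicate 1 lay about midway. PLXDC2 fell by 2.61 ± 0.22 on the log2 scale, 6.11-fold lower (adjusted p = 2.01e-06), and by 3.12 without replicate 1. It was also the gene with the smallest adjusted p with line means as replicates (0.00398), followed by DPYD (0.0108) and MMP16 (0.0319).

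DPYD, the enzyme of the first step of pyrimidine breakdown, read 6.06, 4.13 and 4.70 against 6.40 to 6.77 (median 6.50) and was 2.96-fold lower (difference -1.57 ± 0.24, adjusted p = 6.41e-04). Replicate 1 of A10 lay below the wild-type arrays but nearer to them than to the other A10 arrays, and the difference without it was -2.12. The A10 arrays of DPYD had a standard deviation of 0.99. MMP16, a membrane-bound matrix metalloproteinase, read 6.23, 5.29 and 5.24 against 6.89 to 7.26 (median 7.10) and was 2.79-fold lower (difference -1.48 ± 0.14, adjusted p = 8.05e-06). The single-line differences of MMP16, -1.37 to -1.59, and of DPYD, -1.55 to -1.58, were much alike across the wild-type lines.

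In CAPN6, CHRDL1, GHR and DSEL the wild-type lines differed widely among themselves, and N8 was the highest. CAPN6, a calpain-family protein, read 4.79, 5.28 and 5.04 in A10 and 5.72 to 8.89 (median 6.96) on the wild-type arrays. The A10 arrays were below all of them, at values under the filter, but the difference of -2.0 ± 0.17 (4.0-fold lower, adjusted p = 2.01e-06) ran from -0.85 against the parental cells to -3.30 against N8. CHRDL1, a secreted antagonist of BMPs, read 5.12, 5.22 and 5.42 against 6.40 to 7.62 (median 6.70) and was 3.05-fold lower (difference -1.61 ± 0.11, adjusted p = 2.07e-07). Its difference was -1.20 against the parental cells and -2.15 against N8. GHR, the growth hormone receptor, read 4.29, 4.14 and 3.73 against 4.59 to 6.27 (median 5.03), with a difference of -0.64 against N4 and -1.88 against N8. DSEL, a relative of the dermatan sulfate epimerase, fell by 1.36 ± 0.11 on the log2 scale, from -0.94 against N4 to -2.11 against N8.

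CADPS2, which primes dense-core vesicles for exocytosis, read 6.66, 4.73 and 4.96 in A10 and 6.22 to 7.07 (median 6.93) on the wild-type arrays. Replicate 1 lay inside the wild-type range and the other A10 replicates far below it. The difference was -1.36 ± 0.26 (2.57-fold lower, adjusted p = 0.00324) with all arrays and -1.97 without replicate 1. The A10 arrays of CADPS2 had a standard deviation of 1.05, while the error of 0.26 rests on the pooled spread of all lines. GALNT13, an enzyme that starts O-glycan chains, had the same arrangement, with 6.14, 4.91 and 5.03 against 5.82 to 6.74 (median 6.58) and a difference of -1.13 ± 0.21 (2.18-fold lower, adjusted p = 0.00255). PDGFD, a ligand of the PDGF receptors, read 6.33, 5.69 and 5.30 against 6.65 to 7.40 (median 7.01) and was 2.35-fold lower (difference -1.23 ± 0.15, adjusted p = 6.22e-05). IFITM1, an interferon-induced membrane protein with close relatives in the genome, read 8.18, 7.54 and 7.60 against 8.48 to 9.12 (median 8.98) and was 2.11-fold lower (difference -1.08 ± 0.14, adjusted p = 1.77e-04). PRR16 was on all 3 A10 arrays, at 4.81, 4.63 and 4.52, below the wild-type arrays at 5.51 to 5.88, and fell by 1.00 ± 0.08 on the log2 scale (adjusted p = 7.71e-07).

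In 10 of these 12 falls, all but PDGFD and IFITM1, at least 2 of the 3 A10 arrays read under 5.6. Such genes passed the filter through the lines in which they were higher, and their folds rest on dim values. No detection calls were used, so no bound is given.

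**Figure D2:**
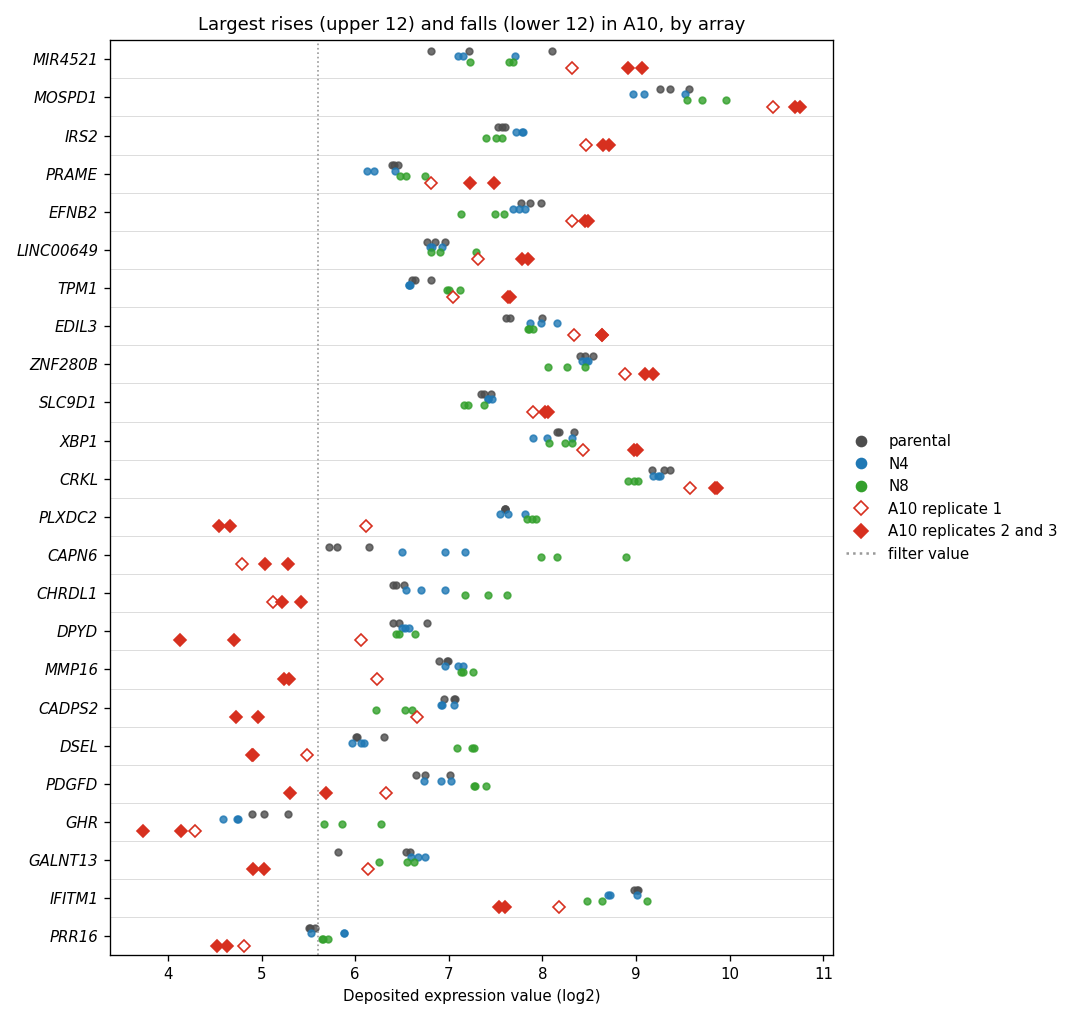
Deposited log2 values (x axis) of the 12 largest rises and 12 largest falls among genes called against every wild-type line, 1 point an array, with wild-type lines in grey, blue and green, A10 replicate 1 as an open diamond and A10 replicates 2 and 3 as filled diamonds. The dotted line is the filter value of 5.6. The open diamond lies between the filled ones and the wild-type points for PLXDC2, DPYD and MMP16 and within the wild-type points for CADPS2, GALNT13 and TPM1, while CHRDL1, CAPN6 and MOSPD1 have all 3 diamonds together.

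ATXN1L itself was not lower on the arrays labelled ATXN1L-KO. It read 7.20, 7.44 and 7.46 in A10 and 7.05 to 7.29 (median 7.16) on the wild-type arrays. Replicate 1 was inside the wild-type range and replicates 2 and 3 were above it. The difference was 0.20 ± 0.07 (1.15-fold, adjusted p = 0.0654), and 0.29 without replicate 1 (adjusted p = 0.0107). With the position of the edit not given, this probe set does not check the genotype. ATXN1, the relative that also binds CIC, read 7.19, 6.51 and 6.80 against 6.59 to 7.10 (difference -0.03 ± 0.11, adjusted p = 0.906, a sign that turns without the parental line as reference). CIC read 6.88, 6.86 and 6.70 against 6.75 to 6.99 (difference -0.09 ± 0.06, adjusted p = 0.462). Of the 9 measured members of the list of CIC partners and co-repressors, which include HDAC1, HDAC2, SIN3A and ARID1A, limma called 0, with 1 (ATXN1L) at an unadjusted p under 0.05. Over all 9686 genes, 1017 were higher and 1208 lower at that unadjusted p. Without A10 replicate 1, ATXN1L was called higher and RBPJ, the DNA-binding factor of Notch signalling, lower (difference -0.20, adjusted p = 0.0455).

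The CIC target list had 13 measured genes, of which 1 rose (ETV5) and 1 fell (CCND2), 15.4% beside 8.40% of all genes. At an unadjusted p under 0.05 there were 4 higher and 1 lower, beside 1017 higher and 1208 lower of all 9686 genes. Of the 13 differences 12 were above 0, and their median was 0.19, beside -0.01 for all genes tested. The median was -0.08 on A10 replicate 1, 0.38 on replicate 2 and 0.37 on replicate 3, each against the wild-type mean. The wild-type arrays numbered 1 were low in these genes as well, with a median of -0.20 from their own lines' mean. Against the wild-type arrays of the same number, the list's median was 0.04 on A10 replicate 1, 0.22 on replicate 2 and 0.27 on replicate 3. With replicate number as a block, 4 of the targets were called higher, while the calls over all genes went from 814 to 1379. Against the parental cells the list's median was 0.18, against N4 0.19 and against N8 0.12. Without A10 replicate 1 the median was 0.38, and ETV5, SHC3 and GPR3 were called higher, beside 4.97% of all genes. Without replicate 2 or without replicate 3 none was called higher, and the medians were 0.06 and 0.10. Leaving out N8 replicate 1 gave a median of 0.12, and leaving out parental replicate 2 gave 2 calls. In the other lines labelled ATXN1L-KO, set against the same wild-type arrays, the list's median was 0.46 in A30 and 0.45 in B21.

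ETV5 read 5.47, 5.97 and 6.10 in A10 and 4.62 to 5.54 (median 4.89) on the wild-type arrays. All wild-type values and A10 replicate 1 lay under the filter value of 5.6. ETV5 thus passed the filter only through the lines labelled ATXN1L-KO, and its fold rests on dim values. Replicates 2 and 3 were above every wild-type array, and replicate 1 was within their range, near its top. On the wild-type arrays numbered 1, ETV5 read 4.66, 4.82 and 4.62. It rose by 0.79 ± 0.18 (1.73-fold, adjusted p = 0.013), and was called against the parental cells and N4 but not against N8 alone (adjusted p = 0.0838). Without A10 replicate 2 the adjusted p was 0.0847 and without replicate 3 it was 0.107. ETV4 read 6.08, 6.46 and 6.47 against 5.37 to 6.66 (median 5.67), where the highest wild-type values were on N8 arrays (difference 0.46 ± 0.22, adjusted p = 0.22). ETV1 read 5.83, 5.85 and 6.10 against 4.95 to 5.87 (median 5.6), a difference of 0.46 ± 0.16 (adjusted p = 0.0986). Against the wild-type arrays of the same number, the differences on A10 replicates 1, 2 and 3 were 0.77, 0.75 and 0.86 in ETV5. They were 0.56, 0.52 and 0.31 in ETV4 and 0.76, 0.12 and 0.49 in ETV1. On replicate 1 alone, SPRY2, SPRY4, DUSP4 and DUSP5 had 0.03, -0.02, -0.21 and -0.17 in the same comparison.

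The feedback inhibitors of MAPK signalling did not pass. SPRY2 read 7.21, 7.77 and 7.76 in A10 and 6.85 to 7.56 (median 7.44) on the wild-type arrays, and SPRY4 read 4.82, 5.86 and 5.58 against 4.65 to 5.88 (median 5.14). In both genes A10 replicate 1 was among the lower wild-type values, where the wild-type arrays numbered 1 also lay: 7.37, 7.33 and 6.85 in SPRY2 and 4.97, 4.90 and 4.65 in SPRY4. DUSP4, a phosphatase of MAP kinases in the nucleus, read 5.83, 6.28 and 6.57 against 5.92 to 6.46, and DUSP5 read 4.40, 5.29 and 5.54 against 4.29 to 5.59. All A10 and wild-type values of DUSP5 lay under the filter value of 5.6, so DUSP5 passed the filter through A30 and B21 alone. The differences of DUSP4 (0.07 ± 0.15) and DUSP5 (0.04 ± 0.24) were smaller than their errors, and that of SPRY4 (0.21 ± 0.23) was near its error. The receptor GPR3 and the adaptor SHC3 had differences of 0.32 ± 0.12 (adjusted p = 0.102) and 0.39 ± 0.13 (adjusted p = 0.0712). CCND2, a D-type cyclin, read 8.52, 8.46 and 8.60 against 8.60 to 8.96 (median 8.81) and fell by 0.30 ± 0.06 on the log2 scale (adjusted p = 0.0053), a call that was lost without A10 replicate 2 (adjusted p = 0.0526) and against N4 alone (adjusted p = 0.133). CCND1 (0.04 ± 0.08), FOSL1 (0.02 ± 0.12) and VGF (0.13 ± 0.10) did not pass.

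**Figure D3:**
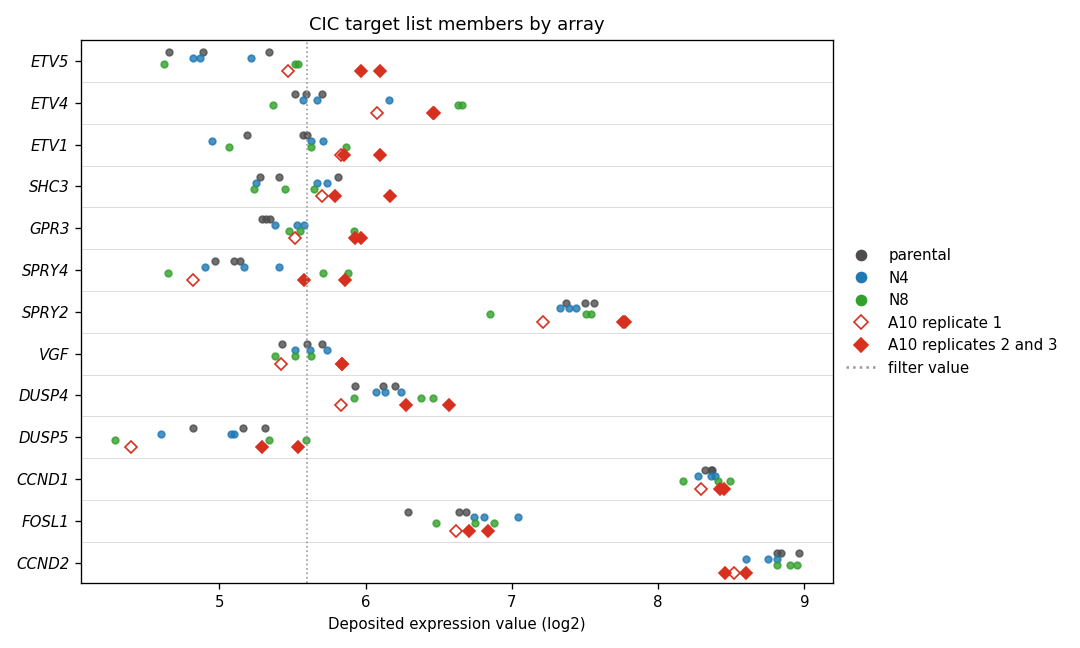
Deposited log2 values (x axis) of the 13 measured CIC targets, 1 point an array, with the same symbols as in the plot of the largest rises and falls. In ETV5, ETV4, GPR3, SPRY4, SPRY2, VGF, DUSP4, DUSP5 and CCND1 the open diamond of A10 replicate 1 lies to the left of both filled diamonds. In each of these genes it does so by more than the filled ones lie apart. In ETV5, GPR3, SPRY2 and VGF both filled diamonds lie to the right of every wild-type point.

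Promoters of the list were searched because CIC is known to bind octamers of this kind. The letters searched were TGAATGAA, TGAATGGA, TCAATGAA and TCAATGGA on both strands, in RefSeq windows of 300 bases that end 50 bases past a start site. Of the 13 measured targets 6 had an entry, and 2 of these genes held a match. Counted by window, 1 for each start site, the match was in 2 of their 13 windows, beside 1323 of 35116 windows (3.77%) in the table. The stretches with the match nearest to the start are shown because they carry the motif in full, in capitals, in the direction of transcription:
ETV1: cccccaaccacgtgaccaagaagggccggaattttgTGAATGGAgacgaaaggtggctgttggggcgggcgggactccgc
VGF: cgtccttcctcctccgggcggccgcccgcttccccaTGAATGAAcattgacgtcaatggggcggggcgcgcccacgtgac
The first lies at chr7:13991507-13991586 and the second at chr7:101165616-101165695, both on the minus strand of GRCh38.p14. The match began 125 bases before the start in ETV1, at 1 of its 6 start sites, and 90 bases before it in VGF, whose window held 6 matches, the others overlapping on the opposite strand. These are matches of letters, and neither gene was called in A10. The called targets, ETV5 and CCND2, had no entry and were not searched, nor was ETV4.

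Target genes of YAP and SRF, which report on actin tension, were the list with the widest gap between A10 replicate 1 and the others. Of 12 measured, TAGLN and TPM1 rose (16.7%, beside 3.84% of all genes), 10 differences were above 0 (4663 of 9686 for all genes), and the median was 0.35. Against single wild-type lines that median was 0.46 for the parental cells, 0.525 for N4 and 0.008 for N8. The list's median was -0.24 on replicate 1, 0.60 on replicate 2 and 0.65 on replicate 3, and against the wild-type arrays of the same number it was 0.04, 0.47 and 0.63. Without replicate 1, 6 rose, beside 4.97% of all genes, and the list's median was 0.62. TAGLN, the smooth muscle actin-binding protein transgelin, read 5.47, 6.60 and 6.51 against 4.84 to 5.79 (median 5.53), and rose by 0.73 ± 0.19 (1.66-fold, adjusted p = 0.024). TAGLN was not called against N4 alone or against N8 alone. Replicate 1 was in the middle of the wild-type range and the other A10 arrays above it. Of the members chosen after their values were seen, ANKRD1, a YAP target, read 7.16, 9.57 and 9.53 against 6.44 to 9.85, and CCN2, another, read 8.42, 10.06 and 10.03 against 7.58 to 10.07, so that in both the wild-type arrays alone spanned more than the A10 arrays. Neither passed with all arrays (adjusted p = 0.212 and 0.339).

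Among matrix genes, 4 of 10 measured were called (40%, beside 8.40% of all genes). THBS1, a secreted matricellular protein, read 6.16, 7.08 and 7.33 against 5.70 to 6.86 (median 6.02) and rose by 0.76 ± 0.19 (adjusted p = 0.0205), with replicate 1 near the wild-type median. The matricellular tenascin TNC rose by 0.40 ± 0.08, with all 3 A10 arrays between 6.55 and 6.69 and the wild-type arrays between 6.01 and 6.62. EDIL3 rose as well, and the basement membrane protein NID2 fell by 0.29 ± 0.09 on the log2 scale. THBS1, TNC and NID2 were not called against N8 alone.

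In the insulin and PI3 kinase list, IRS2 rose, and the transcription factor FOXO4 and the mTORC1 inhibitor TSC2 fell, 3 of 14 measured (21.4%, beside 8.40% of all genes). The list's median was -0.04. TSC2 read 7.71, 7.64 and 7.77 in A10 and 7.90 to 8.20 (median 7.97) on the wild-type arrays, with no overlap, and fell by 0.32 ± 0.06 on the log2 scale (adjusted p = 0.00321), though not against the parental cells alone (adjusted p = 0.0711). FOXO4 fell by 0.43 ± 0.11 on the log2 scale (adjusted p = 0.0201). INSR, IGF1R, AKT1 and PDPK1, chosen after their values were seen, had differences of -0.09, -0.05, -0.10 and -0.03 and did not pass. DDIT4, a stress-induced inhibitor of mTORC1 that stands in the stress list, read 7.48, 7.07 and 7.10 against 7.76 to 8.11 (median 7.86) and fell by 0.69 ± 0.09 on the log2 scale (adjusted p = 2.05e-04), below every wild-type array.

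Of 19 measured Wnt genes, 4 fell (21.1%, beside 4.56% of all genes) and none rose. They were LGR5, LEF1, SFRP1 and SFRP2, and 15 of the 19 differences were below 0 (5014 of 9686 for all genes), with a median of -0.09 beside -0.01 for all genes. The list's median was -0.12 against the parental cells and -0.17 against N4. Against N8 it was -0.01, as for all genes. SFRP1 was not called against the parental cells alone or N4 alone. LGR5, the R-spondin receptor, read 7.87, 7.98 and 7.99 in A10 and 8.58 to 9.06 (median 8.86) on the wild-type arrays. All 3 A10 arrays were alike and below the range, and LGR5 fell by 0.90 ± 0.08 on the log2 scale (1.86-fold lower, adjusted p = 2.76e-06). LEF1, the DNA-binding partner of beta-catenin, fell by 0.37 ± 0.07 on the log2 scale (adjusted p = 0.00281) and was called against every wild-type line. SFRP2, a secreted Wnt inhibitor, was called in opposite directions: the difference was -0.99 against the parental cells, -0.72 against N4 and 0.40 against N8. The Notch list had 4 of 17 called (23.5%, beside 8.40%), the ligand JAG1 higher and NOTCH1 and the targets NRARP and HES4 lower. NRARP read 9.01, 8.14 and 8.27 against 8.27 to 9.54, and its difference was -0.98 against the parental cells and 0.08 against N8.

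Transcription factors of neural development had 6 of 18 called (33.3%, beside 8.40% of all genes), 5 of them lower. ISL1, a LIM homeodomain factor of motor neurons, read 6.09, 5.21 and 5.13 against 5.99 to 6.77 (median 6.50), and fell by 1.01 ± 0.21 on the log2 scale (adjusted p = 0.00593), though not against N8 alone (adjusted p = 0.0536). POU3F2, a POU domain factor of neurons, read 6.64, 6.28 and 5.84 against 6.69 to 7.28 (median 6.92) and fell by 0.70 ± 0.14 on the log2 scale, though not against the parental cells alone (adjusted p = 0.0879). SOX11 fell by 0.95 ± 0.15, which was -1.70 against N8 and -0.43 against N4, where it was not called. In the kidney list, EYA1 and EMX2, which act in early kidney formation, fell by 0.59 ± 0.16 and 0.26 ± 0.08 on the log2 scale. Neither was called against the parental cells alone or N4 alone, and EMX2 was not called without A10 replicate 1 (adjusted p = 0.101). TFAP2C, an AP-2 factor, rose by 0.35 ± 0.08.

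Cell cycle lists were mixed. Of 21 S phase genes 5 were called (23.8%, beside 8.40% of all genes): MCM2 and MCM4 of the replicative helicase, MCM7 and the licensing factor CDT1 fell, and the cyclin CCNE2 rose. CDT1 was not called against any wild-type line alone, and CCNE2 was not called against N8 alone. Without A10 replicate 1 neither CDT1 (adjusted p = 0.0607) nor MCM7 (adjusted p = 0.0722) was called. MCM2 read 8.59, 8.66 and 8.75 in A10 and 8.90 to 9.22 (median 9.05) on the wild-type arrays, and fell by 0.37 ± 0.05 on the log2 scale (adjusted p = 4.78e-04) with no overlap. MCM4 fell by 0.26 ± 0.05 on the log2 scale and was called against every wild-type line, as MCM2 was. Of 20 G2 and mitosis genes 2 rose (10.0%, beside 3.84% of all genes), CCNB2 and KIF23, both on chromosome 15, and the difference of CCNB2 from N8 was -0.07. MYC, in the list of MAPK early response genes, read 8.06, 7.0 and 7.07 against 7.46 to 8.67 (median 8.48) and fell by 0.95 ± 0.18 on the log2 scale (adjusted p = 0.00326), with a difference of -0.50 against N8 that did not pass (adjusted p = 0.155). The p53-induced noncoding RNA PURPL read 8.27, 6.12 and 6.34 against 7.77 to 9.43 (median 8.73), and fell by 1.77 ± 0.32 on the log2 scale (adjusted p = 0.00257), though not against N8 alone (adjusted p = 0.059). Replicate 1 of PURPL was inside the wild-type range, and PURPL had the widest gap of the falling genes between replicate 1 and the other A10 arrays, followed by F8A1, which has near-identical copies that the probe set may not tell apart, and CADPS2.

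Of the 75 genes named and called here, 30 were called with 1 sign against every wild-type line. The 12 largest rises and 12 largest falls were named from such genes only, so the naming rule largely set this count. The others among the 30 were LGR5, LEF1, SYT1, DDIT4, MCM2 and MCM4. Of all 814 genes called, 140 (17.2%) were called against every line. Among the 75, those not called against the parental cells alone were 18, against N4 alone 15 and against N8 alone 27. A gene can be in more than 1 of these counts. Some large differences were carried by 1 wild-type line. CA2, a carbonic anhydrase, fell by 0.99 ± 0.12 on the log2 scale (adjusted p = 6.22e-05), but the line means were 5.82 for the parental cells, 6.02 for N4 and 7.40 for N8, and the difference from the parental cells of -0.39 did not pass (adjusted p = 0.114). PCDH9, a protocadherin, rose by 0.81 ± 0.12 (adjusted p = 3.93e-04), with a difference of 1.89 from N8 and of 0.12 from N4. In the exocytosis list, SYT1, the calcium sensor of synaptic vesicles, read 6.31, 6.19 and 6.25 against 5.57 to 6.03 (median 5.68), and rose by 0.52 ± 0.09 against every line alike (0.49 to 0.56).

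Calls were unevenly spread over the chromosomes. On chromosome 21, 29 of 97 tested genes were higher in A10 (29.9%) and limma called 0 lower. At an unadjusted p under 0.05 there were 54 higher and 0 lower, beside 1017 higher and 1208 lower of all 9686 genes. Chromosome 13 had 28 of 170 higher (16.5%), chromosome 22 had 40 of 243 (16.5%) and chromosome 15 had 36 of 308 (11.7%). With all 3 A10 arrays, lower genes were most frequent on chromosome 10, with 48 of 403 (11.9%), and chromosome 8, with 34 of 340. Without replicate 1 this order changed: lower were 73 of 340 genes on chromosome 8 (21.5%), 58 of 345 on chromosome 4 (16.8%), 68 of 472 on chromosome 7 (14.4%) and 39 of 403 on chromosome 10 (9.68%). The higher genes without replicate 1 were 32 of 97 on chromosome 21, 59 of 243 on chromosome 22 (24.3%), 28 of 170 on chromosome 13 and 50 of 308 on chromosome 15 (16.2%). The 7 chromosomes with over 5% of their genes higher (9, 13, 15, 17, 20, 21 and 22) together held 22% of tested genes, 65.6% of the higher calls and 12% of the lower ones. The median difference on chromosome 21 was 0.18 in A10, with 0.12, 0.24 and 0.22 on its 3 arrays, 0.17 in A30 and 0.14 in B21.

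**Figure D4:**
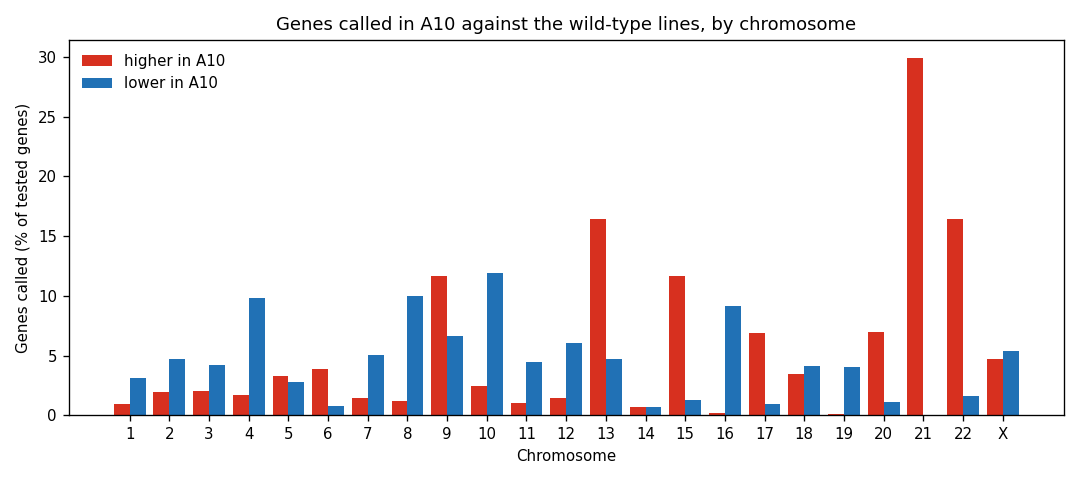
Share of tested genes (y axis, percent) called higher (red) and lower (blue) in A10 against the mean of the wild-type lines, by chromosome (x axis), with all 3 A10 arrays. The red bar of chromosome 21 stands at 29.9%, with no blue bar beside it, and those of chromosomes 13 and 22 at 16.5%.

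Within chromosomes, the running median of the A10 difference over 41 neighbouring genes passed 0.2 in either direction over 20 or more genes in 4 runs. The runs were picked by this same difference, from the same A10 arrays. Their counts of genes with 1 sign, their calls and their medians in A10 are therefore a description. At the end of the long arm of chromosome 13, from ARGLU1 to CHAMP1, 20 of 21 genes were higher and 15 were called, among them IRS2 and SLC9D1. The run's median was 0.51 (1.42-fold), with 0.37, 0.51 and 0.54 on A10 replicates 1, 2 and 3, -0.10 in A30 and -0.07 in B21. It was 0.33 against the parental cells, 0.38 against N4 and 0.62 against N8, where N8 itself had a median of -0.18 against the other wild-type lines. On chromosome 9, 30 of 31 genes from GALNT12 to ZNF883 were higher, with 22 called and a median of 0.33, and further along 36 of 38 genes from RPL12 to LINC00963 were lower, with 18 called and a median of -0.29 (1.23-fold lower). On chromosome 21, 43 of 46 genes from TEKT4P2 to BACE2 were higher, with 22 called and a median of 0.28, beside 0.20 in A30 and 0.17 in B21. In each of the 4 runs all 3 A10 arrays had the same sign, with replicate 1 the nearest to 0.

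A shorter stretch on chromosome 22, from CRKL to PRAME, which was chosen after its values were seen, held 17 tested genes, of which 15 were above 0 and 9 were called higher. Its median was 0.15 on replicate 1, 0.47 on replicate 2 and 0.39 on replicate 3, with 0.11 in A30 and 0.12 in B21. The 4 runs held 136 genes, 59 of the higher calls (15.9%) and 18 of the lower ones (4.07%). When each line was centred on the running median of its neighbours, 312 genes were called in place of 814, 131 higher and 181 lower. After this centring the difference in IRS2 was 0.65 (adjusted p = 5.37e-06), in EFNB2 0.44, in XBP1 0.52 and in CRKL 0.48, all still called, while SLC9D1 at 0.17 was not (adjusted p = 0.195). Chromosome 8 and 10 falls such as MMP16 (-1.45) and PLXDC2 (-2.65) were also called after centring. Wild-type lines had such stretches too: 7.56% of genes lay past 0.2 in N8, 1.62% in the parental cells and 0.578% in N4, against 1.74% in A10.

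**Figure D5:**
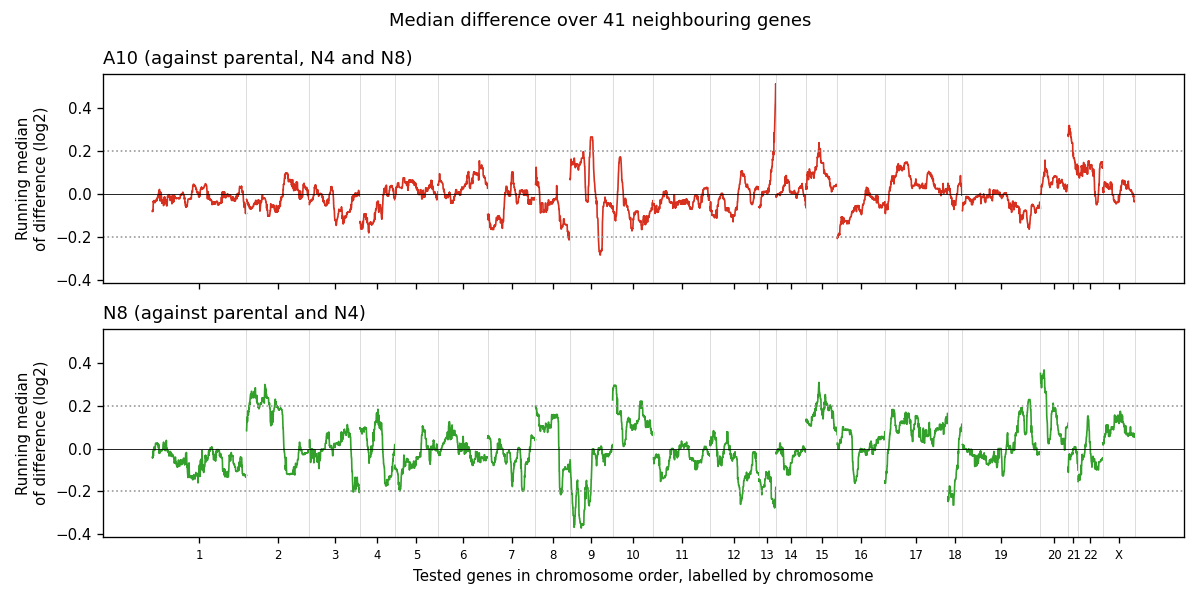
Running median over 41 neighbouring genes of the log2 difference (y axis) along the tested genes in chromosome order (x axis), for A10 against the 3 wild-type lines (upper panel) and for N8 against the parental cells and N4 (lower panel). Dotted lines mark 0.2 and -0.2. A10 reaches 0.51 at the end of chromosome 13 and -0.28 on chromosome 9, and N8 runs from -0.37 to 0.37.

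Against the mean of A30 and B21, the other lines labelled ATXN1L-KO, 39 of the 75 genes named and called here differed by limma (20.4% of all genes did), 17 higher in A10 and 22 lower, beside 10.0% and 10.4% of all genes. These 75 genes were chosen for a difference in which the same A10 arrays enter, so their share is a description and is not to be read against that of all genes. IRS2 read 7.92 in A30 and 8.09 in B21 as line means, above the wild-type line means of 7.49 to 7.76 and below the A10 mean, and A10 was 0.60 above them (adjusted p = 7.25e-06). MMP16, at 7.02 in A30 and 6.98 in B21, was as in the wild-type lines, and the difference of A10 from both was -1.41 (adjusted p = 7.8e-06). PDGFD and DPYD were likewise lower in A10, with differences of -1.22 and -1.30. TNC was higher in A30 (8.01) and B21 (8.37) than in A10 (difference -1.58, adjusted p = 7.15e-09). MIR4521, at 8.22 in A30 and 8.07 in B21, ETV5, at 6.04 and 6.06, and CHRDL1, at 5.44 and 5.36, were not called in this comparison.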

How the data were processed

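The deposited values, 1 per probe set and array, are on the log2 scale (read from their range, 0.57 to 14.84) and come from Affymetrix Expression Console as run by the authors, per the submitters' processing notes. The program's version and options are not stated there. Array medians were 5.09 to 5.18, so values were used as deposited, with a pseudocount of 0.

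Of 53617 probe sets 16098 had 1 gene symbol, 0 several and 37519 none, which gave 14884 genes. In 779 genes with more than 1 probe set, that with the highest mean of the 18 arrays stood for the gene. Genes above 5.6 (the 40th percentile) on at least 3 arrays were tested, 9686 in all. The number of arrays limits the precision.

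limma 3.58.1 (R 4.3.3, two-sided, Benjamini-Hochberg over all tested genes) was fitted to all 18 arrays with 1 mean for each of 6 lines, 12 residual degrees of freedom and no covariates, and was tested on simulated data. Chromosomes and gene order come from RefSeq genes of GRCh38.p14. Genes were ordered by their start coordinates, and distances between genes were not used. Figures were drawn with matplotlib 3.10.9 in Python 3.11.15.

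The members, gene lists and tests were chosen with earlier results of these data known. The genes to name were CIC, ATXN1L and ATXN1, the 12 largest rises and falls among genes called against every wild-type line, the measured CIC targets, up to 4 members with the smallest p of every other list where called, the 3 called genes in each direction with the widest gap between A10 replicate 1 and the other A10 arrays, the 3 with the largest difference among genes not called against every line, and the ends of runs of neighbours. Alternatives covered the filter, quantile normalisation, probe sets, eBayes settings, thresholds, arrays and lines left out, replicate terms, line means and neighbour centring. Gene lists were given no test.

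Labels number the replicates 1 to 3 in every line. Deviations from the line mean correlated over 0.1 in 39 of 45 pairs of equally numbered arrays, and ran from -0.00369 to 0.514 over all 45. Taking the numbers to pair the arrays would have needed all 45 over 0.1, so replicate number entered as an alternative only.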

Additional observations from a re-analysis of the deposited data

Results flagged for a closer look

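Among the 89 genes named, 5 had 1 wild-type array far from the other 8 relative to the range of the 9 arrays, a gap that chance gives in about 1 of 20 groups. The count of 5 in 89 is near that rate. The rate holds for arrays of 1 group, while these came from 3 lines that differ. LINC00649 was at 7.29 on N8 replicate 1, SPRY2 at 6.85 on N8 replicate 1, TNC at 6.62 on N8 replicate 1, GPR3 at 5.92 on N8 replicate 2 and TAGLN at 4.84 on parental replicate 1. Of these 5 arrays 3 were N8 replicate 1, which was not tested.

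Of 75 named genes called in A10 against the wild-type lines, 39 also differed from the mean of A30 and B21, tested as a contrast in the same limma fit. The same A10 arrays enter both comparisons. The differences, A10 minus the mean of A30 and B21 on the log2 scale, were above 0 in 17 genes. Those that had risen in A10 were LINC00649 (1.30), SYT1 (1.20), PRAME (1.12), PCDH9 (1.08), MOSPD1 (0.94), TAGLN (0.65), SLC9D1 (0.63), IRS2 (0.60), TP53I3 (0.49), CRKL (0.48), CCNB2 (0.43), TPM1 (0.41), ZNF280B (0.38), CCNE2 (0.26), TJP1 (0.24) and STARD4 (0.23). HES4 (0.23) had fallen in A10 and was lower still in A30 and B21.

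Below A30 and B21 were 22 genes. Those that had fallen in A10 were PURPL (-1.70), MMP16 (-1.41), DPYD (-1.30), PDGFD (-1.22), CA2 (-0.71), DSEL (-0.65), EYA1 (-0.62), GHR (-0.54), IFITM1 (-0.52), PRR16 (-0.51), SFRP1 (-0.42), NID2 (-0.41), BAX (-0.34), MCM2 (-0.31), TSC2 (-0.28), MCM4 (-0.24) and CCND2 (-0.19). TNC (-1.58), VLDLR (-0.67), TFAP2C (-0.61), EDIL3 (-0.50) and BAMBI (-0.36) had risen in A10 and were higher still in A30 and B21. In this comparison LINC00649 was at a mean of 6.47 in A30 and 6.21 in B21, below its wild-type line means of 6.85 to 7.0, while A10 was above them.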

How the results depend on the processing

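The counts of genes called depended on the settings. For A10 against all wild-type lines, parental, N4, N8, and every line with 1 sign, the calls were 814, 635, 650, 1255 and 140. Leaving out 1 array at a time they ran over 327 to 1142, 255 to 1162, 250 to 1104, 873 to 1223 and 58 to 318. With no filter they were 510, 417, 405, 903 and 84, at an adjusted p under 0.01 329, 211, 242, 581 and 47, and with a 1.5-fold minimum 81, 114, 102, 198 and 23. With replicate number as a block they were 1379, 1119, 1081, 1835 and 255, a hint from the data only, since 15 of 18 arrays were nearest on average to their own number. With a term for replicate 1 they were 1335, 1110, 1108, 1817 and 256, with replicates 2 and 3 of every line 1461, 1254, 1336, 1336 and 343, and with the term and no A10 replicate 1, an alternative chosen after seeing the data, 1431, 1483, 1403, 1606 and 412. Against all wild-type lines, line means gave 4 and neighbour centring 312. Against A30 and B21, 1980 became 1005 under 0.01 and 204 with 1.5-fold, and ran from 1402 to 2160 with arrays left out. CIC targets called higher, 1 with all arrays, were 2 with quantile normalisation or neighbour centring, 3 with the replicate 1 term, also with no A10 replicate 1, and 4 with the block or replicates 2 and 3. They were 0 under 0.01 or with line means and 0 to 3 with arrays left out (4 higher at an unadjusted p under 0.05 by limma), and the list's median was 0.06 to 0.38. Without N8 as reference the runs from GALNT12 and ARGLU1 had medians of 0.24 and 0.37, and without the parental line that from TEKT4P2 had 0.32. With arrays left out, the runs from GALNT12, RPL12, ARGLU1 and TEKT4P2 had 0.26 to 0.33, -0.33 to -0.26, 0.45 to 0.54 and 0.26 to 0.29. Against all wild-type lines together, signs of named genes turned under these alternatives in genes not called: FOSL1 (-0.027 with replicates 2 and 3, -0.06 without the parental line, -0.018 with the term and no A10 replicate 1, -0.037 to 0.073 with an array left out), ATXN1 (0.022 without the parental line, -0.21 to 0.13 with an array left out), DUSP5 (-0.0083 without N4, -0.19 to 0.38), SPRY4 (-0.014 to 0.51) and DUSP4 (-0.11 to 0.26). Against 1 wild-type line alone, 6 called genes had the opposite sign: SFRP2 (0.40), NRARP (0.08), NDRG1 (0.13), DHCR7 (0.04) and CCNB2 (-0.07) against N8, and UNC13B (-0.05) against the parental line. The causes were not tested. Quantile normalisation, probe set means, eBayes with trend and robust, and the 12 arrays alone kept every count of genes within 1.5 times, apart from the CIC targets.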
